A study of Saccharomyces cerevisiae with 159 samples.

Results

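Budding yeast cells carrying cdc28-13, a temperature-sensitive allele of the CDC28 gene for the main cell cycle kinase, were held at 37 °C, where the mutant kinase fails and cells stop in G1. cdc28-13 AID-BCY1 cells, in which the Bcy1 protein can be degraded by auxin, were compared with cdc28-13 cells at 4 and 6 h of arrest. The members are the 8 libraries of the Bcy1 depletion experiment that carry these labels at these times, 4 of cdc28-13 AID-BCY1 and 4 of cdc28-13, of 47 libraries in the experiment and 159 in the series. Each strain has 1 library per time in each of 2 library series, named d113 and d226. Libraries were paired by series and time where pair differences are given, while the main tests used a series term. The 4 libraries of these strains at 2 h and the 8 libraries labelled WT AID-BCY1 or WT at 4 and 6 h served as further comparisons.

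Both cdc28-13 strains were MATa of the W303 background with can1-100 and the auxotrophic alleles his3-11,15, trp1-1, ura3, leu2-3 and ade2-1, were GAL and psi+, and had cdc28-13 linked to URA3. The cdc28-13 AID-BCY1 strain carried in addition a degron-tagged allele, KanMX:pRFA1:9Myc-AID*-BCY1, which the RFA1 promoter drives, and leu2::pTEF1-osTIR::LEU2, which supplies the plant F-box protein that recognises the degron. All cultures grew in YEPD with acetic acid and received 500 µM auxin after 2 h at 37 °C, the cdc28-13 cultures included, and the auxin of the 6 h cultures was renewed 2 h later. The libraries at 2 h therefore saw 0 h, those at 4 h saw 2 h and those at 6 h saw 4 h of auxin. The sources do not say whether the 4 and 6 h libraries of a series came from the same flask, or that the series were separate cultures. Each p-value therefore rests on the spread between libraries, not between cultures known to be separate. That spread was estimated over the 47 libraries of the experiment. The degron acts on protein, and no measurement of Bcy1 protein was used here.

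Bcy1 is the regulatory subunit of protein kinase A (PKA). In the absence of cyclic AMP it binds and inhibits the catalytic subunits of the kinase, so that removing it leaves PKA active whatever the nutrient state. Active PKA keeps the transcription factors Msn2 and Msn4, which switch on a large group of general stress genes through the stress response element (STRE), out of the nucleus, and it favours expression of the genes for ribosomes. The environmental stress response of yeast is the joint induction of the stress genes and repression of the ribosome genes.

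Expression was measured by RNA-seq and is given as TPM, a transcript's share of all transcripts after correction for its length, rescaled here so that the nuclear open reading frames of each library sum to 1000000. Differences are log2 differences on the log2(TPM + 1) scale, cdc28-13 AID-BCY1 minus cdc28-13, with standard errors from a limma fit. A gene is called higher or lower at a Benjamini-Hochberg adjusted p under 0.05 over 6078 genes. The sequencing depth of these libraries is unknown, since TPM keeps none, and TPM values are shares, so that a gain in one list lowers the rest. Ribosomal RNA took 6.34% to 28.6% of TPM in the 12 libraries of both cdc28-13 strains, with the lowest and highest shares both in cdc28-13 libraries. Each library is a bulk culture, so a lower level in every cell and fewer cells expressing a gene cannot be told apart, and TPM says nothing of the amount of RNA in a cell.

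The labels were checked against marker genes. Histone genes, which are transcribed in S phase, summed to 1826 to 2345 TPM in cdc28-13 AID-BCY1 and 2207 to 3445 TPM in cdc28-13 at 4 and 6 h, against 5034 to 7399 TPM in the libraries labelled WT AID-BCY1 and 8029 to 9114 TPM in those labelled WT. URA3, which marks the cdc28-13 allele, lay between 421 and 601 TPM in all 12 cdc28-13 libraries and between 132 and 178 TPM in the 11 libraries of the other strains. Transcripts specific to a cells summed to 868 to 2298 TPM in cdc28-13 AID-BCY1 and 1565 to 2705 TPM in cdc28-13. Those specific to alpha cells summed to 64.6 to 120 and 80.0 to 272 TPM in these strains. By both sums they were MATa cells, as the labels say. The libraries labelled WT AID-BCY1 and WT are also described as MATa. They held only 21.2 to 51.8 and 26.6 to 32.5 TPM of a-specific transcripts. Their alpha-specific transcripts summed to 1247 to 3389 and 1638 to 3250 TPM. The alpha-specific gene SAG1 did not separate the strains at 4 and 6 h. Its median was 67.2 TPM in cdc28-13 AID-BCY1, 60.4 in cdc28-13, 55.1 in WT AID-BCY1 and 68.1 in WT, as labelled. By the sums, the libraries labelled WT AID-BCY1 and WT go against their label. Any comparison of the cdc28-13 strains with them below is also a comparison of mating types.

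At 4 and 6 h together, 580 of 6078 genes (9.54%) were higher and 1514 (24.9%) were lower in cdc28-13 AID-BCY1 than in cdc28-13. The genes that fell were led by general stress genes, stores of glycogen and trehalose, and mitochondrial respiration, and those that rose included nearly all genes for cytosolic ribosomal proteins. Of the changed genes, 87 were more than 2-fold higher and 436 more than 2-fold lower. The median difference over all genes was -0.11. When each library was instead centred on its median gene, which moved the median difference by 0.19, the split became 1399 higher and 1043 lower, so 57.3% of calls were higher in place of 27.7%. Counts near the middle of the distribution therefore depend on the scaling. List medians of this comparison are to be read against that of all genes, -0.11. Its counts of higher and lower members are likewise to be read against 9.54% and 24.9% of all genes. The other comparisons below have medians over all genes of their own. These were -0.06 at 2 h before auxin and -0.06 for the effect after less before auxin. From 2 to 6 h they were -0.01 in cdc28-13 and -0.03 in cdc28-13 AID-BCY1. For the libraries labelled WT AID-BCY1 against those labelled WT the median was 0.05. Within series d113 alone 318 genes were higher and 668 (11.0% of those tested) lower, and within series d226 alone 201 were higher and 12.9% lower.

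The genes of the PKA pathway itself were described as a list of 19, of which 1 was higher and 9 were lower, with a median of -0.34. BCY1 mRNA, made from the RFA1 promoter in the degron strain, was at 81.7, 74.3, 137 and 127 TPM in cdc28-13 AID-BCY1 at 4 and 6 h (d113 then d226 at each time, the order used throughout), against 308, 289, 265 and 336 TPM in cdc28-13. The groups did not overlap, with a log2 difference of -1.55 ± 0.17 (SE, limma adjusted p = 3e-08). The difference at 2 h, before auxin, was -1.09 ± 0.24 (adjusted p = 0.054), so the promoter of the degron allele and the time in auxin cannot be told apart for this message, which also says nothing of how far the protein was depleted. RFA1, the source of that promoter, did not pass the test (-0.03 ± 0.13, limma adjusted p = 0.9).

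TPK2, which encodes a catalytic subunit, was lower, at 46.5, 46, 73.7 and 62.3 TPM in cdc28-13 AID-BCY1 and 88.9, 82.8, 90.6 and 106 TPM in cdc28-13 (-0.70 ± 0.14, limma adjusted p = 0.00017), while TPK3, which encodes another, did not pass the test (0.29 ± 0.16, limma adjusted p = 0.18). PDE1, the low-affinity phosphodiesterase that breaks down cyclic AMP, fell by 0.98, and RAS2, the GTPase that stimulates adenylate cyclase, fell by 0.46 on the log2 scale. IRA2, which encodes a GTPase-activating protein that turns Ras off, was the member that rose, with 76.7, 53.2, 76.8 and 51.6 TPM in cdc28-13 AID-BCY1 and 44.7, 35.8, 32.5 and 34.6 TPM in cdc28-13 (0.78 ± 0.19, limma adjusted p = 0.0015). Transcripts for an inhibitor of Ras were thus higher in the strain made to lose Bcy1, while those for TPK2, RAS2 and the phosphodiesterase PDE1 fell. What these changes do to PKA activity was not tested.

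A second list held 32 kinases and transcription factors that act below PKA. None of its genes was higher and 13 were lower, with a median of -0.22; after centring on the median gene 4 were higher and 11 lower. MSN4, one of the general stress activators, was at 66.5, 57.3, 74 and 72.2 TPM in cdc28-13 AID-BCY1 and 208, 107, 175 and 144 TPM in cdc28-13 (-1.18 ± 0.20, limma adjusted p = 3e-05). USV1, a stress-induced zinc finger factor, fell by 2.09, and MAF1, the repressor of RNA polymerase III, fell by 0.90 on the log2 scale. RIM15, the kinase that PKA restrains and that promotes entry into stationary phase, gave -0.18 ± 0.17 (limma adjusted p = 0.46, 95% interval -0.53 to 0.17).

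Stress-induced genes were lower almost without exception. Of 92 measured members of a list of 94, 85 were lower and 1 was higher, with a median of -1.69 beside -0.11 over all genes. In the 4 pairs the median of the list, less that of all genes, was -1.64 and -1.48 at 4 h and -1.66 and -1.44 at 6 h, a mean of -1.56 ± 0.11 (SD, n = 4 pairs). As a share of all open reading frame TPM the list took 1.12%, 0.978%, 1.47% and 1.47% in cdc28-13 AID-BCY1, against 3.03%, 2.74%, 4.86% and 5.09% in cdc28-13. In cdc28-13 the share was thus higher at 6 h than at 4 h in both series, and no cdc28-13 AID-BCY1 library reached the lowest cdc28-13 value. The trehalose, glycogen, small heat shock and hydrophilin, antioxidant and other Msn2 and Msn4 target lists below are parts of the stress-induced list. Their counts repeat its calls and give no separate evidence.

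HSP12, a small membrane-protecting heat shock protein, gave the largest fall of any called gene other than LEU2. Its level was 38.7, 55.4, 217 and 258 TPM in cdc28-13 AID-BCY1, against 1781, 2176, 8582 and 11015 TPM in cdc28-13, 41.3-fold lower (-5.37 ± 0.22, limma adjusted p = 1.3e-16). DDR2, a small protein of unclear function that many stresses induce, was at 8.16, 13.2, 44.2 and 39 TPM in cdc28-13 AID-BCY1, against 159, 132, 2094 and 1657 TPM in cdc28-13 (-4.57 ± 0.52, limma adjusted p = 4.5e-08). Both genes were far higher at 6 h than at 4 h in cdc28-13, and every cdc28-13 AID-BCY1 value lay below every cdc28-13 value. HSP26, a small heat shock protein that holds unfolded proteins, was at 22.5, 15.17, 67.5 and 48.5 TPM in cdc28-13 AID-BCY1, against 164, 121, 1329.8 and 1104 TPM in cdc28-13 (-3.62 ± 0.19, limma adjusted p = 4e-14). CTT1, the cytosolic catalase, was at 14.4, 15, 23.2 and 27.4 TPM in cdc28-13 AID-BCY1, against 125, 87.1, 112.5 and 92.7 TPM in cdc28-13 (-2.36 ± 0.25, limma adjusted p = 2e-08). For CTT1 the groups were also apart, but the cdc28-13 values at 6 h lay within the range of those at 4 h.

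The upstream regions of these genes are shown because STRE is the element through which Msn2 and Msn4 act. Each run covers bases 300 to 101 before the start codon, 5′ to 3′ on the strand of the gene, read from RefSeq's copy of the R64 assembly (sacCer3). Capitals mark STRE, searched as AGGGG or, on the other strand, CCCCT. The printed run of HSP12 lies at VI:106956-107155 on the plus strand and that of DDR2 at XV:231856-232055 on the minus strand. The runs of TSL1 at XIII:70324-70523, CTT1 at VII:654334-654533 and HSP26 at II:381730-381929 are on the plus strand.
HSP12: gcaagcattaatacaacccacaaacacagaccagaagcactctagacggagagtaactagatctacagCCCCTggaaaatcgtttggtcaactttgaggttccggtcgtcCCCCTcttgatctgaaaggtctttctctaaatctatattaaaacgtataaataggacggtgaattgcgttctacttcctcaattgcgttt
DDR2: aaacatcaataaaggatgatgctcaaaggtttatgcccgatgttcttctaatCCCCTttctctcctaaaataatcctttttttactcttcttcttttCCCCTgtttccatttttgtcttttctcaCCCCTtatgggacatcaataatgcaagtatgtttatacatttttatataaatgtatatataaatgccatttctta
TSL1: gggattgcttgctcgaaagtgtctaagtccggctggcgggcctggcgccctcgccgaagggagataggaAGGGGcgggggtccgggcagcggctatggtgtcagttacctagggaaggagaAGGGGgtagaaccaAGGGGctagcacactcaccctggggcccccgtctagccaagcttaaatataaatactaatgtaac
CTT1: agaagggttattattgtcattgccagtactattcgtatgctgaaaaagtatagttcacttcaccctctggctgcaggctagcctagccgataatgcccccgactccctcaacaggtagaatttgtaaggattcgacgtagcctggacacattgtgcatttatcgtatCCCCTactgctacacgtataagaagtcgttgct
HSP26: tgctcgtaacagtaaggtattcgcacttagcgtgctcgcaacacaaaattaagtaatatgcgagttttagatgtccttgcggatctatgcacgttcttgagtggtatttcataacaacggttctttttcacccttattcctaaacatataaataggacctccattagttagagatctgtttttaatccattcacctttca

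HSP12 has 2 matches, which begin at positions -232 and -190 from the start codon, DDR2 has 3 at -248, -203 and -175, TSL1 has 3 at -231, -179 and -165, and CTT1 has 1 at -133. HSP26 has no match in the 300 bases searched, and its message fell by 3.62 on the log2 scale, less than that of HSP12 and more than that of CTT1. Over all 5993 nuclear genes with a start codon in R64, 22.2% held at least 1 match in these 300 bases. Of the tested genes with such a region, a match was held by 34.4% of the 1495 that were lower in cdc28-13 AID-BCY1, 14.5% of the 567 that were higher and 18.9% of the 3694 that were neither. Of the 26 genes that were at least 8-fold lower, LEU2 among them, 19 (73.1%) held a match. The stress-induced list stood at 72.0% (67 of 93), but part of it was chosen as Msn2 and Msn4 targets, so that share was in part fixed by the choice. A match is a stretch of letters and not a shown binding site.

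**Figure D1:**
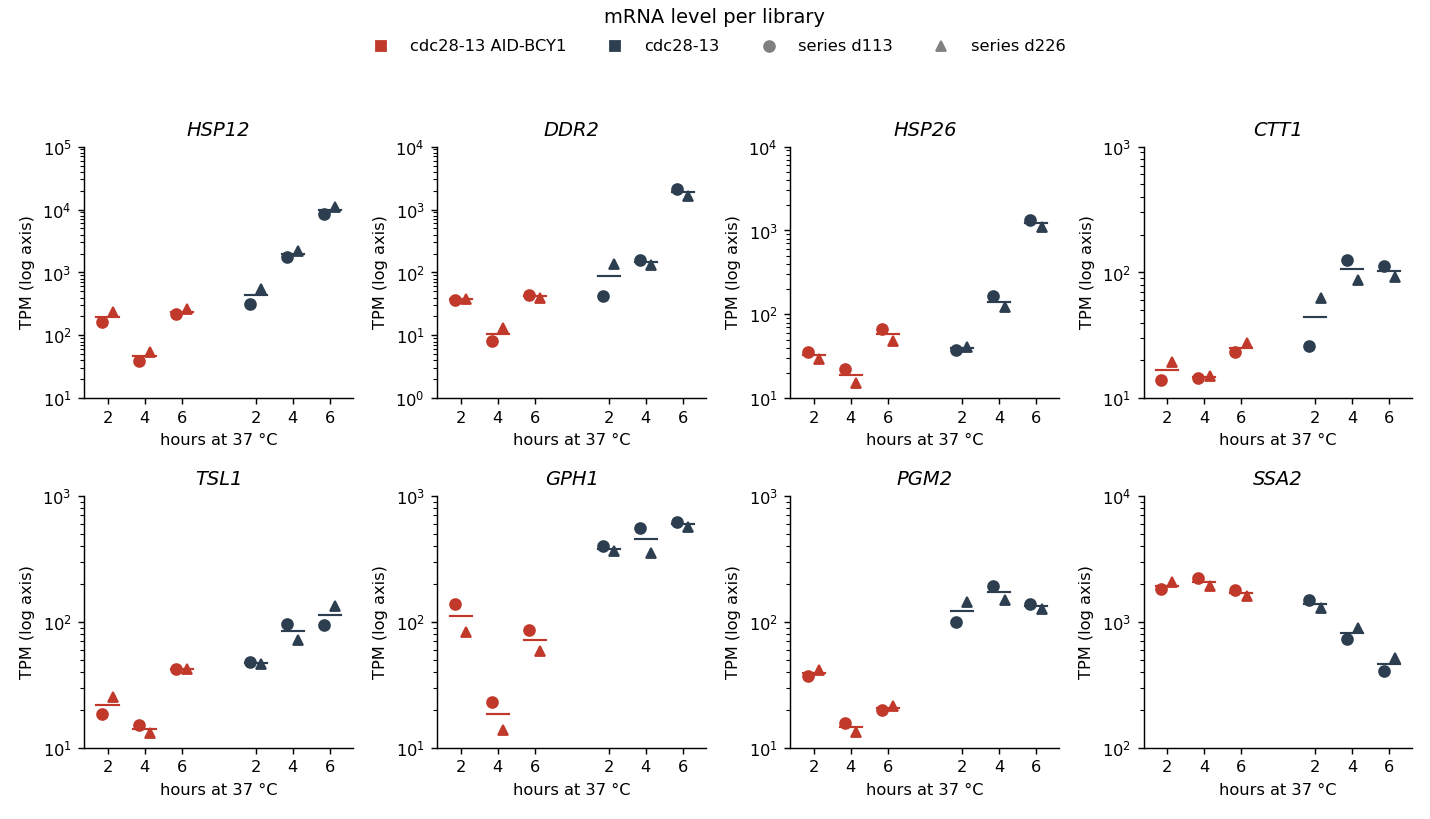
TPM of 8 genes on a log axis at 2, 4 and 6 h, with cdc28-13 AID-BCY1 on the left and cdc28-13 on the right of each panel; circles are series d113, triangles series d226 and bars the mean of the 2 libraries. In the panels of HSP12, DDR2 and HSP26 the cdc28-13 values are highest at 6 h while the cdc28-13 AID-BCY1 values at 4 and 6 h stay under 300 TPM; in the panel of SSA2 the cdc28-13 AID-BCY1 values are the higher ones.

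Other targets of Msn2 and Msn4, 35 measured genes that form part of the stress-induced list, gave 33 lower and none higher, with a median of -2.02. MSC1, a protein of unclear role named for a meiotic recombination phenotype, was at 9.72, 7.76, 33.6 and 31.4 TPM in cdc28-13 AID-BCY1, against 215, 160.0, 356 and 384 TPM in cdc28-13 (-3.87 ± 0.22, limma adjusted p = 1.9e-13). TFS1, an inhibitor of the vacuolar carboxypeptidase Y, was at 21.6, 8.29, 67.7 and 66.5 TPM in cdc28-13 AID-BCY1, against 289.7, 218, 534 and 498 TPM in cdc28-13 (-3.52 ± 0.21, limma adjusted p = 2e-13). RTN2, a reticulon-like protein, fell by 3.64, and SOL4, a 6-phosphogluconolactonase, by 3.73 on the log2 scale. EGO4 fell by 4.34 and is outside this list, whose lowest value was -3.87. All 4 cdc28-13 AID-BCY1 libraries lay below all 4 cdc28-13 libraries for each of these genes. YGP1, a secreted glycoprotein made as nutrients run out, fell by 2.28. SPG1, named for its need in stationary phase, belongs to the stationary phase list counted in the next paragraph. It was listed at 1.92, 1.51, 1.54 and 2.24 TPM in cdc28-13 AID-BCY1 and 25.9, 14.1, 91.5 and 42.3 TPM in cdc28-13.

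Antioxidant genes gave 19 lower and 1 higher of 23, with a median of -1.09. GRX1, a glutaredoxin, was at 196, 197, 394 and 414 TPM in cdc28-13 AID-BCY1, against 720.5, 708, 1189 and 1404 TPM in cdc28-13 (-1.77 ± 0.15, limma adjusted p = 1.7e-10). The member that rose was GTT2, a glutathione transferase, at 72.3, 46, 94.5 and 59.8 TPM in cdc28-13 AID-BCY1 and 51.2, 36.8, 51.7 and 47.1 TPM in cdc28-13, where the groups overlapped and the call was close to the threshold (0.50 ± 0.19, limma adjusted p = 0.039). Genes linked to stationary phase gave 9 lower and none higher of 15 with a median of -0.68, or 6 lower and 1 higher after centring on the median gene.

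Genes for reserve carbohydrates fell together. All 9 trehalose genes were lower, with a median of -1.42, and 10 of 11 glycogen genes were lower with none higher, with a median of -2.13. Part of this preceded auxin, since at 2 h the glycogen median was -1.02, with all 11 values below 0 but none past the test, and the trehalose median was -0.42, with 2 of 9 genes lower. After auxin less before, 2 of 11 glycogen genes (median -0.87) and 3 of 9 trehalose genes (median -0.68) were lower. TPS1, the trehalose-6-phosphate synthase, was at 119, 109.9, 128 and 132 TPM in cdc28-13 AID-BCY1, against 329, 293, 297 and 401 TPM in cdc28-13 (-1.42 ± 0.14, limma adjusted p = 4.6e-09). TSL1, a regulatory subunit of the same complex, was at 15.23, 13, 42.1 and 41.9 TPM in cdc28-13 AID-BCY1, against 96.6, 71.2, 94.2 and 134 TPM in cdc28-13 (-1.94 ± 0.24, limma adjusted p = 2.5e-07). For TPS1 and TSL1 every cdc28-13 AID-BCY1 library lay below every cdc28-13 library. GPH1, glycogen phosphorylase, which breaks glycogen down, was at 23.1, 13.9, 86 and 58.8 TPM in cdc28-13 AID-BCY1, against 553, 350.1, 626 and 568 TPM in cdc28-13 (-3.80 ± 0.33, limma adjusted p = 4.8e-10); at 2 h it was at 138 and 82.9 TPM in cdc28-13 AID-BCY1 and 400.2 and 364 TPM in cdc28-13. GLC3, the branching enzyme, was at 15.7, 8.05, 21.4 and 22.4 TPM in cdc28-13 AID-BCY1, against 268, 152, 223 and 144 TPM in cdc28-13 (-3.51 ± 0.32, limma adjusted p = 9.7e-10). Enzymes of synthesis (GSY2, -2.61) and of breakdown (GDB1, -2.03) were both lower, and the groups did not overlap for either. PGM2, the phosphoglucomutase that feeds both stores, was at 15.8, 13.3, 19.9 and 21.4 TPM in cdc28-13 AID-BCY1, against 194, 149.7, 138.9 and 126 TPM in cdc28-13 (-3.05 ± 0.22, limma adjusted p = 1.9e-11); it was already lower at 2 h, as given with the libraries before auxin.

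Heat shock proteins split by class. All 14 measured small heat shock proteins and hydrophilins of a list of 15 were lower (median -1.94). The 22 chaperones of the heat shock regulon gave 7 higher and 7 lower with a median of 0.01. Each count was 31.8% of the list, beside 9.54% higher and 24.9% lower over all genes. SSA2, a constitutive Hsp70, was at 2242, 1935, 1795 and 1600.4 TPM in cdc28-13 AID-BCY1, against 733, 890.1, 406 and 517 TPM in cdc28-13 (1.63 ± 0.13, limma adjusted p = 4.3e-11). All 4 cdc28-13 AID-BCY1 libraries lay above all 4 cdc28-13 libraries, and the cdc28-13 values were lowest at 6 h. SSA2 shares most of its sequence with SSA1, so its reads may be split between the copies. SSA4, a stress-induced Hsp70, fell by 0.95, and SSA3, another, did not pass the test (-0.52 ± 0.21, limma adjusted p = 0.059). The Hsp110 pair behaved likewise, since SSE1, the constitutive member, had 1623, 1627, 1259.9 and 1105 TPM in cdc28-13 AID-BCY1 and 963, 1070.3, 615 and 708 TPM in cdc28-13 (0.76 ± 0.09, limma adjusted p = 6.8e-08). SSE2, the stress-induced member, had 43.6, 34.9, 104 and 82.9 TPM in cdc28-13 AID-BCY1 and 139.7, 115, 286 and 293 TPM in cdc28-13 (-1.65 ± 0.16, limma adjusted p = 4.9e-09). The disaggregases HSP104 in the cytosol and HSP78 in mitochondria fell by 1.26 and 1.68 on the log2 scale. After centring, the chaperone list gave 8 higher and 5 lower.

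Genes for respiration were lower as a block. Of 34 genes for the respiratory chain and ATP synthase, 33 were lower and none higher, with a median of -1.34. COX13, a cytochrome c oxidase subunit, was at 236, 185, 273 and 235 TPM in cdc28-13 AID-BCY1, against 574, 447, 1114 and 828 TPM in cdc28-13 (-1.60 ± 0.10, limma adjusted p = 4.9e-13). ATP7, a subunit of the ATP synthase stalk, was at 195, 206, 159.6 and 185 TPM in cdc28-13 AID-BCY1, against 476, 475, 531 and 574 TPM in cdc28-13 (-1.46 ± 0.10, limma adjusted p = 2.1e-12). The groups were apart for both genes, and the gap was wider at 6 h than at 4 h, although the change in the gap did not pass the test for either (adjusted p = 0.21 and 0.48). The list median less that of all genes was -1.01 and -0.9997 in the 4 h pairs and -1.59 and -1.34 in the 6 h pairs.

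Of 17 tricarboxylic acid cycle genes 13 were lower and 1 was higher, with a median of -0.98. LSC2, a succinyl-CoA ligase subunit, was at 135, 115, 270.1 and 224 TPM in cdc28-13 AID-BCY1, against 534, 399, 664 and 644 TPM in cdc28-13 (-1.64 ± 0.11, limma adjusted p = 1.5e-12), and SDH2, the iron-sulfur subunit of succinate dehydrogenase, fell by 1.84. Gluconeogenesis and glyoxylate cycle genes gave 8 lower and none higher of 14 (median -0.65), and beta-oxidation genes gave 9 lower and none higher of 13 (median -0.59). POT1, the peroxisomal thiolase, was at 1.18, 0.304, 3.15 and 2.66 TPM in cdc28-13 AID-BCY1 and 12.3, 6.65, 37 and 29.1 TPM in cdc28-13 (-2.85 ± 0.27, limma adjusted p = 1.5e-09).

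Mitochondrial ribosomal protein genes moved opposite to cytosolic ones. Of 74, 71 were lower and none was higher, with a median of -0.76. MRPL17, of the large subunit, was at 35.9, 36.3, 37.4 and 30.9 TPM in cdc28-13 AID-BCY1, against 75.3, 80.9, 55.4 and 64.3 TPM in cdc28-13 (-0.94 ± 0.09, limma adjusted p = 2.8e-09). The level of the whole list, as its median less that of all genes, was 0.04, 0.13, 0.03 and 0.15 in cdc28-13 AID-BCY1, against 0.75, 0.87, 0.36 and 0.48 in cdc28-13, which was itself lower at 6 h than at 4 h. The count of lower genes was 69 at 4 h and 33 at 6 h, and the list median less that of all genes was -0.88 and -0.78 in the 4 h pairs and -0.37 and -0.50 in the 6 h pairs. SSC1, the Hsp70 of the mitochondrial matrix, fell by 0.72.

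Sugar metabolism showed opposed isoenzymes. HXK2, the hexokinase of growth on glucose, was at 1045, 992, 1042 and 979 TPM in cdc28-13 AID-BCY1, against 682, 665, 397 and 444 TPM in cdc28-13 (0.93 ± 0.11, limma adjusted p = 8e-08). HXK1, its glucose-repressed counterpart, was at 184, 190.0, 139.2 and 125 TPM in cdc28-13 AID-BCY1, against 803, 582, 475 and 398 TPM in cdc28-13 (-1.79 ± 0.28, limma adjusted p = 7e-06). HXK2 was thus higher and HXK1 lower in every pair. The glyceraldehyde-3-phosphate dehydrogenase TDH1, made in starving cells, fell by 2.82, and ENO1, an enolase, fell by 1.08. The 22 genes of glycolysis and fermentation gave 4 higher and 5 lower (median 0.09), 18.2% and 22.7% beside 9.54% and 24.9% of all genes. After centring they gave 6 higher and 4 lower. The 15 measured hexose transporters of 21 listed gave 1 higher and 7 lower (median -0.47). HXT6, a high-affinity transporter, was at 41.9, 21.9, 41.5 and 24.2 TPM in cdc28-13 AID-BCY1, against 561, 271, 454 and 216 TPM in cdc28-13 (-3.45 ± 0.36, limma adjusted p = 1.1e-08); its reads cannot be separated with certainty from those of the near-identical HXT7.

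**Figure D2:**
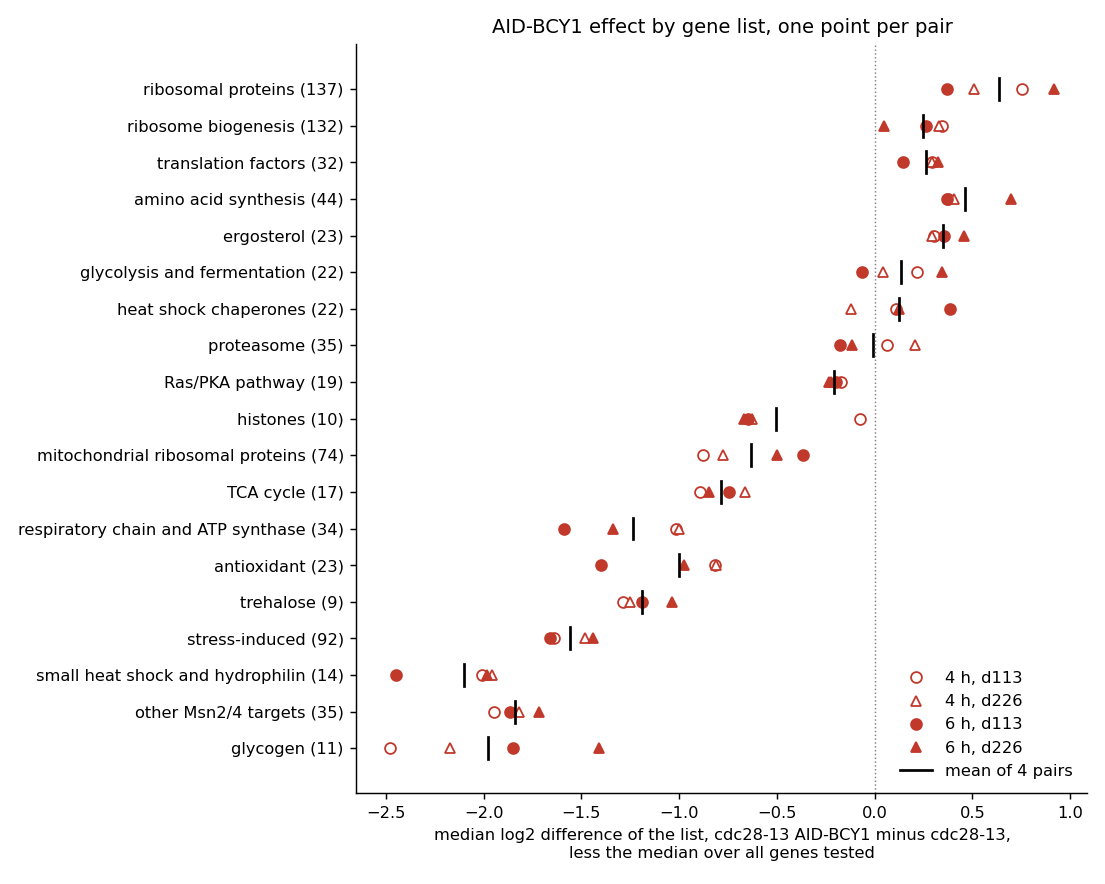
Median log2 difference of each gene list, less that of all genes, in each of the 4 pairs of cdc28-13 AID-BCY1 minus cdc28-13 libraries; open points are 4 h, filled points 6 h, circles series d113, triangles series d226 and the black bar the mean of 4 pairs. The 4 points of the stress-induced list lie between -1.66 and -1.44 and those of the ribosomal protein list between 0.37 and 0.92, on opposite sides of the dotted line at 0.

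Ribosomal protein genes rose nearly as a whole. Of 137, 124 were higher and none was lower, with a median of 0.53 beside -0.11 over all genes, and the large subunit (73 of 81) and small subunit (51 of 56) were alike. Their share of open reading frame TPM was 29.0%, 32.0%, 26.7% and 30.2% in cdc28-13 AID-BCY1, against 19.3%, 24.7%, 19.8% and 18.6% in cdc28-13, so the groups did not overlap. The list median less that of all genes was 0.75 and 0.51 in the 4 h pairs and 0.37 and 0.92 in the 6 h pairs, a mean of 0.64 ± 0.25 (SD, n = 4 pairs). RPS26B, of the small subunit, was at 1522, 1637, 1288 and 1359 TPM in cdc28-13 AID-BCY1, against 890.2, 934, 666 and 609.8 TPM in cdc28-13 (0.92 ± 0.12, limma adjusted p = 2.9e-07). RPL8B, of the large subunit, was at 2581, 2714, 2088 and 2215 TPM in cdc28-13 AID-BCY1, against 1615, 1778, 1285 and 1231 TPM in cdc28-13 (0.71 ± 0.08, limma adjusted p = 5.9e-08). RPL3, which has a single copy, was at 4523, 4615, 4091 and 4327 TPM in cdc28-13 AID-BCY1, against 3059, 3512, 2549.7 and 2349 TPM in cdc28-13 (0.63 ± 0.11, limma adjusted p = 3.8e-05). For all 3 genes the groups were apart, and the lowest values were those of cdc28-13 at 6 h. Many ribosomal protein genes are duplicated, so the levels of single copies such as RPS26B and RPL8B are less certain than that of RPL3.

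Few ribosome biogenesis genes passed the test. Of 132, 9 were higher and 1 was lower, a share of 6.82% higher against 9.54% of all genes, with a median of 0.12; after centring on the median gene 46 were higher and none lower. NOP1, the methyltransferase fibrillarin, was at 596, 585, 384 and 348 TPM in cdc28-13 AID-BCY1 and 475, 554, 433 and 330.0 TPM in cdc28-13 (0.08 ± 0.12, limma adjusted p = 0.67, 95% interval -0.16 to 0.32). NSR1, a nucleolar pre-rRNA processing protein, gave 0.09 ± 0.18 (limma adjusted p = 0.74, 95% interval -0.27 to 0.46). The groups overlapped for both. FPR4, a nuclear prolyl isomerase on the list, was higher at 643, 725, 535 and 603 TPM in cdc28-13 AID-BCY1, against 468, 446, 329 and 473 TPM in cdc28-13 (0.55 ± 0.13, limma adjusted p = 0.0015). The usual elements of this list were present: GATGAG (PAC, both strands) was found in 87.9% of its 300-base upstream regions against 19.1% of all, and AAAATTTT (RRPE) in 80.3% against 9.43%. STRE was found in 9.85% of biogenesis regions, 17.5% of ribosomal protein regions and 12.2% of mitochondrial ribosomal protein regions.

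RNA polymerase I gave 3 higher and none lower of 14 (median 0.21) and RNA polymerase III gave 4 higher and none lower of 15 (median 0.07). RRN3, which brings RNA polymerase I to the ribosomal DNA, was at 84, 86.9, 102 and 69.8 TPM in cdc28-13 AID-BCY1 and 47.8, 60.6, 48.6 and 51.1 TPM in cdc28-13 (0.70 ± 0.18, limma adjusted p = 0.0034). Translation factors gave 8 higher and 1 lower of 32 (median 0.16), or 18 higher and none lower after centring. TEF4, a gamma subunit of elongation factor 1, was at 1842, 1804, 1136 and 1169 TPM in cdc28-13 AID-BCY1, against 839, 985, 493 and 456 TPM in cdc28-13 (1.14 ± 0.10, limma adjusted p = 1e-09), while CAM1, the other gamma subunit, fell by 0.47. The 35 proteasome genes gave 6 lower and none higher with a median of -0.10, which became 4 higher and none lower with a median of 0.09 after centring, so that list has no direction that holds under both scalings. None of the 6 measured open reading frames within the ribosomal DNA passed the test.

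FLO1, FRE4 and TPO1 were among the 10 largest rises with all 4 pairs alike. FLO1, a flocculin that makes cells stick to each other, was at 23.8, 8.8, 371 and 210.3 TPM in cdc28-13 AID-BCY1, against 8.89, 5.37, 17.1 and 6.74 TPM in cdc28-13 (2.77 ± 0.23, limma adjusted p = 1.4e-10). The cdc28-13 AID-BCY1 values were far higher at 6 h than at 4 h, and the lower 4 h value, in series d226, lay below the cdc28-13 value of 17.1 TPM at 6 h. FLO1, FLO5 and FLO9 share repeated sequence, so reads may be exchanged among them. FLO11, the flocculin of filamentous growth, was listed at 3.59, 2.22, 6.3 and 5.74 TPM in cdc28-13 AID-BCY1 and 2.5, 1.66, 1.36 and 1.79 TPM in cdc28-13 (0.89 ± 0.26, limma adjusted p = 0.0086), and its list of 10 gave 3 higher and 2 lower. FRE4, a ferric reductase, was at 41.3, 32.6, 24.1 and 26.1 TPM in cdc28-13 AID-BCY1, against 2.88, 3.79, 3.44 and 4.6 TPM in cdc28-13 (2.76 ± 0.20, limma adjusted p = 1.1e-11). TPO1, a polyamine exporter, was at 329, 233, 418 and 332 TPM in cdc28-13 AID-BCY1, against 93.6, 99, 62.7 and 87.1 TPM in cdc28-13 (1.92 ± 0.19, limma adjusted p = 4.5e-09). For FRE4 and TPO1 the groups were apart at both times.

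Biosynthetic genes rose more often than they fell. Amino acid synthesis gave 19 higher and 7 lower of 44 (median 0.35), sulfate and methionine genes 8 higher and 2 lower of 23 (median 0.36), and ergosterol genes 10 higher and none lower of 23 (median 0.31). LYS9, the saccharopine reductase of lysine synthesis, was at 367, 416, 366 and 327 TPM in cdc28-13 AID-BCY1, against 159, 147, 74.5 and 68.7 TPM in cdc28-13 (1.80 ± 0.14, limma adjusted p = 3.2e-11), and LYS4, the homoaconitase of the same route, rose by 1.10. Genes of leucine and branched-chain amino acid metabolism were among the lower ones, with ILV5 at -0.79, LEU4 at -0.62 and BAT2 at -0.98. ILV5, LEU4 and BAT2 did not pass the test at 2 h, before auxin. Other genes of these routes, LEU2, LEU1 and BAT1, did, as described with the 2 h libraries. ERG2, a sterol isomerase, was at 1619.5, 1382, 2927 and 2948 TPM in cdc28-13 AID-BCY1, against 911, 805, 965 and 883 TPM in cdc28-13 (1.24 ± 0.10, limma adjusted p = 4.9e-11). Its groups were apart, with the highest values in cdc28-13 AID-BCY1 at 6 h. MET14, the adenylylsulfate kinase, rose by 1.08 and MUP1, a methionine permease, by 0.98. Genes under nitrogen control gave 4 higher and 2 lower of 21, beside 9.54% higher and 24.9% lower over all genes, with MEP2, an ammonium permease, at 1.09 and PUT4, a proline permease, at -2.77. Phosphate genes gave 2 higher and 1 lower of 15, near or under those shares.

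Cell cycle genes were described as lists, beside 9.54% higher and 24.9% lower over all genes. G1/S genes gave 4 higher and 2 lower of 29 (median 0.08; 10 and 2 after centring), mitotic genes 1 higher and 2 lower of 15, and M/G1 genes 4 lower and none higher of 16 (5 higher and 3 lower after centring). CLN1, a G1 cyclin, was at 46.7, 55.9, 37.7 and 37.5 TPM in cdc28-13 AID-BCY1 and 128, 131, 74.7 and 68.2 TPM in cdc28-13 (-1.12 ± 0.19, limma adjusted p = 2.4e-05), while the G1 cyclin CLN2 gave -0.37 ± 0.19 (limma adjusted p = 0.13) and CLN3, the most upstream of them, 0.08 ± 0.17 (limma adjusted p = 0.79). SIC1, the inhibitor of the S phase forms of the kinase, was at 33.8, 39, 60.9 and 70.3 TPM in cdc28-13 AID-BCY1 and 91.1, 82.1, 119 and 163 TPM in cdc28-13 (-1.15 ± 0.17, limma adjusted p = 2.7e-06). The groups were apart for CLN1 and SIC1. Histone genes, already low in both strains, gave 6 lower and none higher of 10 (median -0.68), with HHF1, a histone H4 gene of a near-identical pair, at -1.17. CDC28 itself gave -0.13 ± 0.09 (limma adjusted p = 0.31).

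Of 7 a-specific genes 3 were lower and none higher (median -0.69), with STE2, the alpha-factor receptor, at 287, 301, 239 and 166 TPM in cdc28-13 AID-BCY1 and 499, 461, 341 and 297 TPM in cdc28-13 (-0.69 ± 0.14, limma adjusted p = 0.00027). The 4 alpha-specific genes gave 2 lower and the 20 measured pheromone response genes 3 lower, with none higher in either; the pheromone response share was under the 24.9% of all genes. Autophagy genes gave 10 lower and none higher of 22 (median -0.45), or 7 lower and 2 higher after centring. ATG8, the ubiquitin-like protein of the autophagosome, was at 63.9, 52.2, 137 and 134 TPM in cdc28-13 AID-BCY1, against 124, 77.4, 486 and 500.5 TPM in cdc28-13 (-1.30 ± 0.14, limma adjusted p = 1.8e-08). Both 6 h values of cdc28-13 AID-BCY1 exceeded the 4 h values of cdc28-13, so the groups overlapped across times but not within a time. Cell wall genes gave 2 higher and 10 lower of 26, beside 9.54% higher and 24.9% lower over all genes. Their median was -0.04, beside -0.11 over all genes, so the list did not fall as a whole. Its differences ranged from -2.50 to 1.13, and the members given here are ones that fell. CWP2, a major mannoprotein of the wall, was at 3024, 2999, 4235 and 4519 TPM in cdc28-13 AID-BCY1, against 7661, 6314, 15722 and 11817 TPM in cdc28-13 (-1.42 ± 0.13, limma adjusted p = 6.4e-10), and PIR1, a wall protein of the cell integrity pathway, fell by 1.43.

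Each strain was also followed from 2 h, before auxin, to 6 h, after 4 h of auxin, so time and auxin changed together. Between 2 and 6 h 1012 genes (16.7%) were higher and 1007 (16.6%) lower in cdc28-13, and 772 (12.7%) were higher and 1061 (17.5%) lower in cdc28-13 AID-BCY1. Both counts depend on single libraries, since the 2019 changed genes of cdc28-13 became 1253 without its 2 h library of d113, and the 1833 of cdc28-13 AID-BCY1 became 1189 and 1151 without its 2 h library of d113 and its 6 h library of d226. These contrasts use the libraries of the comparison above, so their values are set side by side as a description. In the stress-induced list of 92, cdc28-13 AID-BCY1 had 15 higher and 12 lower at 6 h than at 2 h (median 0.12), against 62 higher and 2 lower in cdc28-13 (median 1.12). Of the 137 ribosomal protein genes, 3 were higher and 9 lower in cdc28-13 AID-BCY1 (median -0.04), against 2 higher and 79 lower in cdc28-13 (median -0.54). HSP12 changed by 0.28 ± 0.31 in cdc28-13 AID-BCY1 (limma adjusted p = 0.53) and by 4.53 ± 0.31 in cdc28-13 (limma adjusted p = 1.8e-11).

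Other lists moved with time in both strains. Ribosome biogenesis genes gave 30 lower and 1 higher of 132 in cdc28-13 AID-BCY1, and 48 lower and none higher in cdc28-13. Mitochondrial ribosomal protein genes gave 60 lower and none higher of 74 in cdc28-13 AID-BCY1, and 35 lower and 1 higher in cdc28-13. Respiratory genes gave 19 lower and 1 higher of 34 in cdc28-13 AID-BCY1, against 23 higher and none lower in cdc28-13, so they ran in opposite directions. TIP1, a wall mannoprotein, was at 1216, 1289, 489, 479, 118 and 60.4 TPM at 2, 4 and 6 h in cdc28-13 AID-BCY1, against 1263, 934, 1494, 1249, 1115 and 838 TPM in cdc28-13. The TIP1 levels were alike at 2 h, and those of cdc28-13 AID-BCY1 were then lower at each later time.

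**Figure D3:**
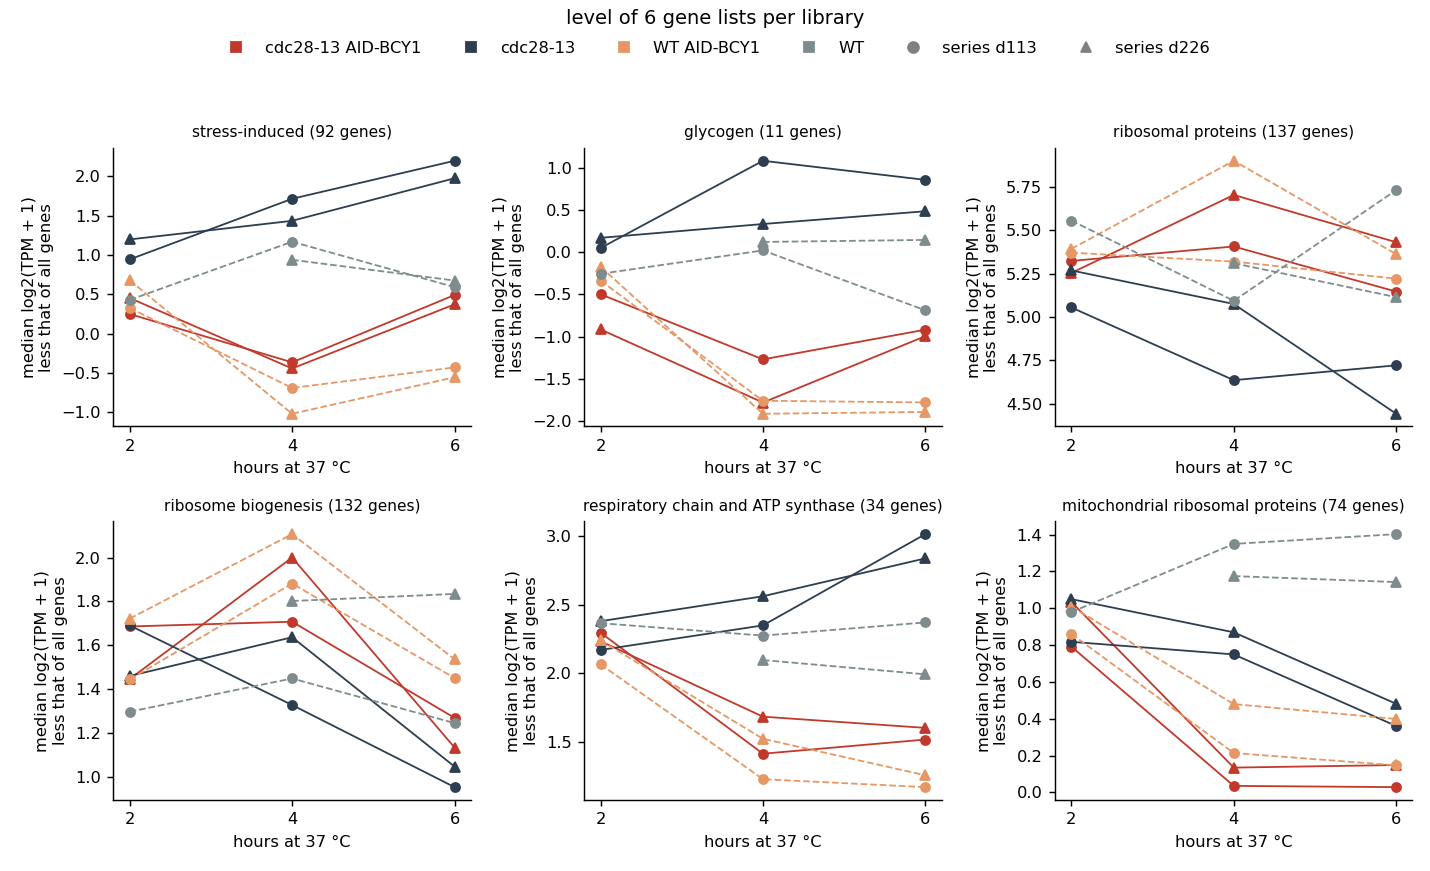
Median log2(TPM + 1) of 6 gene lists less that of all genes, in each library at 2, 4 and 6 h, for cdc28-13 AID-BCY1, cdc28-13 and, with dashed lines, the libraries labelled WT AID-BCY1 and WT. The stress-induced list stands at 0.49 and 0.37 in cdc28-13 AID-BCY1 and at 2.20 and 1.98 in cdc28-13 at 6 h.

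Genes called at 4 h alone and at 6 h alone were counted from the same fit. At 4 h 257 genes (4.23%) were higher and 1143 (18.8%) lower, and at 6 h 464 (7.63%) were higher and 934 (15.4%) lower. Without the cdc28-13 4 h library of d113 or the cdc28-13 AID-BCY1 4 h library of d226 the total of 1400 at 4 h became 782 or 840, and without the cdc28-13 6 h library of d226 the total of 1398 at 6 h became 906. Of the lower genes, 683 were called at both times, 59.8% of the 4 h genes and 73.1% of the 6 h genes, and of the higher genes 194 were, 75.5% and 41.8%. The difference itself, 6 h minus 4 h, passed the test for 9 genes, 7 (0.115%) higher and 2 (0.0329%) lower at 6 h; at an unadjusted p under 0.05 the count was 553. FLO1 gave 3.59 ± 0.45 (limma adjusted p = 9.3e-05) and FLO5, another flocculin, 2.89 ± 0.43 (limma adjusted p = 0.0005). The other 5 that were higher were MAM33, a mitochondrial matrix protein (1.35), ZIM17, a mitochondrial import factor (1.26), the mitochondrial ribosomal proteins MRPL49 (1.03) and IMG1 (0.91), and AIM7 (1.11), an inhibitor of actin branching. The 2 that were lower were TIP1 (-2.003) and NHP6B, a chromatin protein (-0.97). IMG1 was at 43.3, 49.4, 57.6 and 66.1 TPM in cdc28-13 AID-BCY1, against 130.5, 115, 81.8 and 90.5 TPM in cdc28-13. The difference narrowed at 6 h, where cdc28-13 came down and cdc28-13 AID-BCY1 rose. ZIM17, MRPL49, IMG1 and AIM7 were named because the count was small, after their values were seen; a replicate block gave 17 genes in place of 9, culture as a random effect 31, no filter on low values 18, centring on the median gene 4 and no rescaling of TPM 3. Leaving out a library gave 3 to 10 genes, with 3 to 5 without cdc28-13 4 h of either series, cdc28-13 6 h of d113 or cdc28-13 AID-BCY1 4 h of d226.

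Before auxin, with 2 libraries of each strain, few genes passed the test. At 2 h 1 gene (0.0165%) was higher and 8 (0.132%) lower in cdc28-13 AID-BCY1 by limma, and 236 genes passed at an unadjusted p under 0.05; with a replicate block 31 genes passed in place of 9, with only the 12 libraries of both cdc28-13 strains 49, and without any single one of the 4 libraries at 2 h 3 to 5. LEU2, which encodes an enzyme of leucine synthesis, was at 0, 0.201, 0, 0, 0 and 0.764 TPM in the 6 cdc28-13 AID-BCY1 libraries, against 149, 140.4, 95.1, 90.7, 56.4 and 68.5 TPM in the 6 cdc28-13 libraries. LEU2 is a marker in the cdc28-13 AID-BCY1 genotype and leu2-3 is in both, so the near absence of its reads in the strain labelled with the marker goes against what the label describes; it is a strain difference present before auxin, and it stands among the 1514 lower genes counted above. In the libraries labelled WT AID-BCY1 LEU2 was at 0.962, 0, 0.221 and 0.845 TPM at 4 and 6 h, against 173, 116, 119 and 169.2 TPM in those labelled WT.

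LEU1, the isopropylmalate isomerase of the same route, was at 99, 121, 114, 121, 104 and 99.1 TPM at 2, 4 and 6 h in cdc28-13 AID-BCY1, against 484, 422, 476, 485, 168 and 217 TPM in cdc28-13. OAC1, a mitochondrial oxaloacetate carrier, differed at 2 h by -1.70 and BAT1, the mitochondrial branched-chain transaminase, by -1.45. The difference after auxin less that before did not pass the test for LEU1 (0.58 ± 0.24, limma adjusted p = 0.16), OAC1 (0.51) or BAT1 (0.71). The other lower genes at 2 h were YJR115W (-1.66), CYB2, the lactate dehydrogenase of mitochondria (-1.52), PGM2 (-1.59) and UGP1, which makes UDP-glucose (-0.82), and the higher one was TIR3, a wall mannoprotein (0.77). BAT1, YJR115W and CYB2 were named after their values were seen, because the count was small.

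Stress genes had medians below 0 at 2 h as well. Of the 92 stress-induced genes 2 were called lower and none higher, with a median of -0.35, and the share of the list was 1.601% and 1.721% in cdc28-13 AID-BCY1, against 2.04% and 2.30% in cdc28-13. HSP12 was at 164 and 232 TPM in cdc28-13 AID-BCY1 and 319 and 548 TPM in cdc28-13 at 2 h (-1.10 ± 0.31, limma adjusted p = 0.17). The difference after auxin less that before auxin was therefore tested: 96 genes (1.58%) were higher and 433 (7.12%) lower on this measure. Of the stress-induced genes 51 of 92 were lower and none higher (median -1.13), of the respiratory genes 27 of 34 were lower, of the mitochondrial ribosomal protein genes 24 of 74 were lower, and of the ribosomal protein genes 27 of 137 were higher, with none called the other way in these 3 lists. The small heat shock and hydrophilin list, with a median of -0.78 and no gene called at 2 h, gave 7 of 14 lower on this measure, and the other Msn2 and Msn4 targets, with -0.39 and none called at 2 h, gave 25 of 35 lower. HSP12 gave -4.27 ± 0.37 (limma adjusted p = 3.8e-08), HSP26 -3.34 ± 0.34 (adjusted p = 2e-07) and SSA2 1.15 ± 0.22 (adjusted p = 0.00084). CTT1 and TSL1 did not pass this test (-1.13 ± 0.44, adjusted p = 0.12, and -0.85 ± 0.42, adjusted p = 0.25). The count of 529 (8.70%) was 249 without the cdc28-13 2 h library of d113, 256 without the cdc28-13 AID-BCY1 2 h library of d226, and 305 without the rescaling of TPM.

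The effect of the degron strain was then set beside its effect in the libraries labelled WT AID-BCY1 and WT, which were kept growing at 37 °C and received the same auxin. There 567 genes (9.33%) were higher and 912 (15.0%) lower at 4 and 6 h. Of the genes lower in cdc28-13 AID-BCY1, 764 were lower there too, 50.5% of 1514 and 83.8% of 912, and of the higher genes 230 were, 39.7% and 40.6%. The difference between the effects passed the test for 79 genes (1.30%) in the higher and 240 (3.95%) in the lower direction, with a median over all genes of -0.15; 319 in all (5.25%) became 174 when culture was a random effect, 103 without rescaling, 197 without the series covariate, and 193 without the cdc28-13 6 h library of d226 or 196 without the cdc28-13 4 h library of d113. Arrest, mating type and growth state differ together between these backgrounds and cannot be told apart.

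HSP12 and HSP26 had nearly equal effects in both backgrounds. HSP12 was at 25.3, 14.7, 19.8 and 48.9 TPM in the libraries labelled WT AID-BCY1, against 1152, 1368, 962 and 1236 TPM in those labelled WT (-5.52 ± 0.22, limma adjusted p = 3.5e-17), and the difference of effects was 0.15 ± 0.31 (95% interval -0.48 to 0.77). CTT1 was at 10.2, 6.98, 11.8 and 10.5 TPM in the libraries labelled WT AID-BCY1, against 15.6, 20.2, 7.7 and 17 TPM in those labelled WT, and its effects differed by -1.85 ± 0.36 (limma adjusted p = 0.0027). Its levels in cdc28-13, at 125, 87.1, 112.5 and 92.7 TPM, were the only ones above 30 TPM. Of 92 stress-induced genes 29 fell further in the cdc28-13 background and 1 fell less; the exception was HXK1, at 47.8, 27.5, 42.6 and 37.2 TPM in the libraries labelled WT AID-BCY1 and 1059, 732, 609 and 685 TPM in those labelled WT, with effects that differed by 2.49 ± 0.39 (limma adjusted p = 0.00027).

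HSP30, a membrane heat shock protein, was at 5.74, 6.47, 16.7 and 8.45 TPM in cdc28-13 AID-BCY1 and 53.4, 51.5, 137 and 66.7 TPM in cdc28-13, against 5.83, 5.78, 4.81 and 5.13 TPM and 5.99, 9.08, 3.67 and 5.62 TPM in the libraries labelled WT AID-BCY1 and WT (difference of effects -2.81 ± 0.56, limma adjusted p = 0.0031). In the libraries labelled WT, ribosomal protein genes were higher with AID-BCY1 for 10 of 137, 7.30% beside 9.33% of all genes. Their median was 0.11, beside 0.05 over all genes. Of the 137, 22 had an effect that was higher in the cdc28-13 background, with none lower. RPS26B was at 2412, 2105, 2024 and 1729.5 TPM in the libraries labelled WT AID-BCY1 and 1896, 1760.0, 2508 and 1984 TPM in those labelled WT, and the effects differed by 0.90 ± 0.16 (limma adjusted p = 0.0014). Mitochondrial ribosomal protein genes were lower for 73 of 74 in the libraries labelled WT (median -0.96), and respiratory genes for 34 of 34, 7 of which fell further in the cdc28-13 background. FLO1 stayed under 4 TPM in all libraries labelled WT AID-BCY1 or WT, and its effects differed by 2.73 ± 0.32 (limma adjusted p = 7.2e-06).

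**Figure D4:**
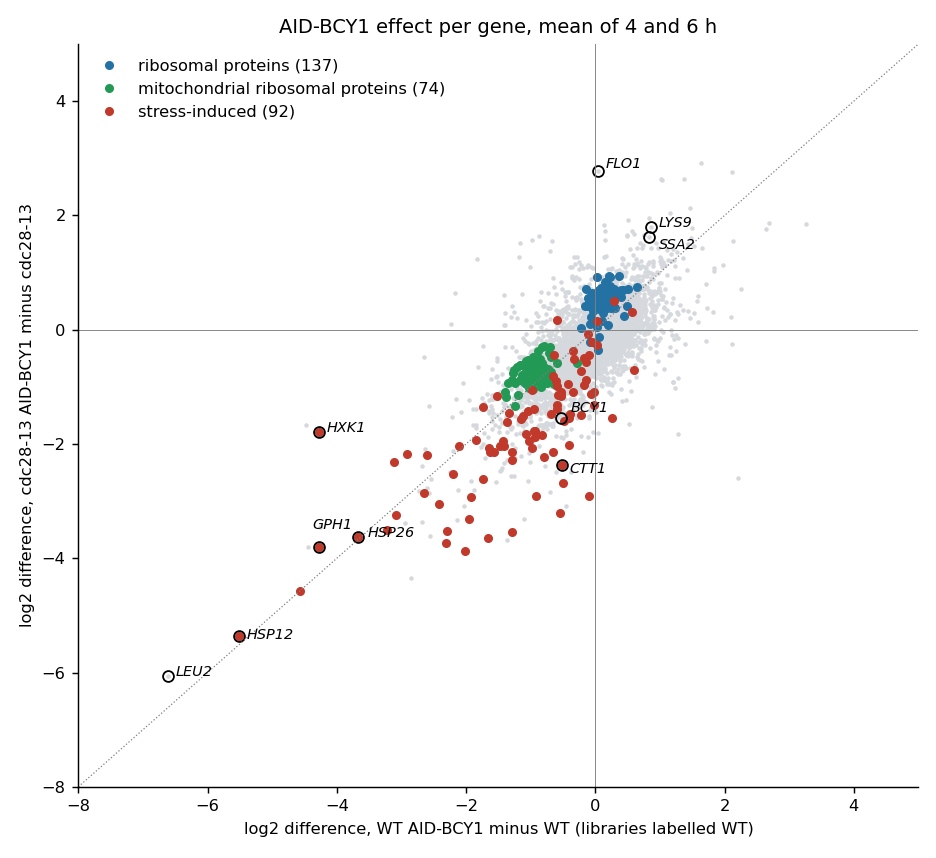
Log2 difference with AID-BCY1 at 4 and 6 h for each gene, in the cdc28-13 background on the vertical axis and in the libraries labelled WT AID-BCY1 and WT on the horizontal axis; stress-induced genes are red, ribosomal protein genes blue and mitochondrial ribosomal protein genes green. HSP12 lies near the dotted line of equal effects (-5.37 and -5.52), CTT1 lies below it (-2.36 and -0.52), HXK1 above it (-1.79 and -4.27) and FLO1 far above it (2.77 and 0.04).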

How the data were processed

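RNA was sequenced from yeast cultures, and the authors deposited 1 table of log2(TPM + 1) values with 7130 rows and 159 libraries. The submitters' processing notes name STAR 2.5.3a, RSEM 1.3.0 and sacCer3. TPM keeps no depth, so no counting error could be given. TPM were rescaled to 1000000 over 6685 nuclear open reading frames (6006 matched to locus tags), genes with a mean log2 of at least 1 were kept, and limma 3.58.1 (R 4.3.3; tables in Python 3.11.15) was fitted to the 47 libraries of the experiment with a mean per strain and time, a series term and a trend in the variance, after it was tested on simulated data. All per-gene p-values are limma's with Benjamini-Hochberg adjustment. No 2 libraries were identical.

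Members and gene lists were chosen with earlier results of these data known. Genes were named by rule: the pathway and stress genes listed, the 10 largest changes in each direction with all 4 pairs alike, the largest of the other contrasts, and up to 4 members of each list with the smallest p plus up to 2 called the other way. Some named items are not reported here.

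Libraries of a series deviated together, with correlations of 0.24, 0.28 and 0.20 at 2, 4 and 6 h over genes. After the series term of the fit these were 0.0075, 0.030 and -0.082, so the series term took up nearly all of it. Pairing by series and time within a strain background rests on the library names. Blocks, scalings, filters, pseudocounts, single series and left-out libraries were tried as alternatives.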

Additional observations from a re-analysis of the deposited data

Results flagged for a closer look

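The effect of AID-BCY1 after auxin differed between the cdc28-13 background and the libraries labelled WT for 319 genes by the limma test of the difference. YDR094W (3.07), HPF1, a wall mannoprotein (2.81), and YFR052C-A (2.80) were the largest in the higher direction. HPF1 was lower with AID-BCY1 in the libraries labelled WT only, by -2.17, and gave 0.65 in cdc28-13. HSP30 (-2.81), HSP33 (-2.67) and MF(ALPHA)1, an alpha-factor gene (-2.64), were the largest in the lower direction. HSP33 has near-identical copies, and MF(ALPHA)1 marks the mating type that separates these backgrounds. YDR094W and YFR052C-A had no match among RefSeq locus tags.

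The effect differed between 6 h and 4 h for 9 genes, with FLO1 at 3.59, FLO5 at 2.89, MAM33 at 1.35, TIP1 at -2.003 and NHP6B at -0.97 on the log2 scale.

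In 8 of 214 sets of 4 pair differences a single pair stood apart from the other 3, where chance sets apart about 1 in 20. They were RIM15 in the 6 h d113 pair (0.24), YJL047C-A in the 4 h d226 pair (5.56, where cdc28-13 was listed at 0), HSP104 in the 6 h d113 pair (-0.84), ATP4 in the 4 h d226 pair (-1.21), DSE3 in the 6 h d226 pair (-0.66), SPG4 in the 6 h d113 pair (-4.26), MEP2 in the 6 h d226 pair (2.01) and HMG1 in the 6 h d113 pair (1.29).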

How the results depend on the processing

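No alternative reversed a called named gene or the median of the stress-induced, ribosomal protein or ribosome biogenesis list. The split of calls over all genes turned to 1399 higher and 1043 lower when libraries were scaled to a common median gene, and under that scaling the proteasome list turned to 4 higher and none lower, and the M/G1 list to 5 higher and 3 lower. Of 211 named genes tested, 189 passed the test, 155 of them in the same direction under every alternative and 34 lost the call under at least 1. Without rescaling of TPM, 305 genes differed after against before auxin, 3 between 6 and 4 h and 103 between backgrounds. With libraries scaled to a common median gene, 4 genes differed between 6 and 4 h. With no filter on low values 18 genes differed between 6 and 4 h, and with no series covariate 197 differed between backgrounds. The replicate block, pairing by series and time, gave 597 higher and 1546 lower genes, 31 at 2 h and 17 between 6 and 4 h. The 12 libraries alone gave 49 genes at 2 h. Culture as a random effect gave 31 between 6 and 4 h and 174 between backgrounds. Series d113 alone gave 318 higher and 668 lower genes, and series d226 alone 201 higher genes and 12.9% lower, with fewer samples. Leaving out a library, which assumes that a lone sample varies like the others, gave 456 to 583 higher and 1178 to 1546 lower genes (201 to 583 and 668 to 1546 with the single series counted in), 782 to 1249 at 4 h, 906 to 1094 at 6 h, 3 to 5 at 2 h, 249 to 543 after against before, 3 to 10 between 6 and 4 h, 193 to 388 between backgrounds, 1253 to 1642 over time in cdc28-13 and 1151 to 1310 in cdc28-13 AID-BCY1. Leaving out a pair, the medians less that of all genes were -1.61 to -1.54 (stress-induced), 0.54 to 0.74 (ribosomal proteins) and 0.18 to 0.27 (ribosome biogenesis). Other causes were not tested. Depth is unknown, so precision at low TPM cannot be stated.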
